A study of Rattus norvegicus with 22 samples.

Results

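The genes described here are the protein folding and secretory machinery of the endoplasmic reticulum (ER), measured in oral squamous cell carcinoma (OSCC) and adjacent normal tongue of the rat. A list of 50 genes was drawn up from the known roles of their products, with earlier results of these data known. A gene was taken as measured where its symbol appears as a gene name on the array. By that rule 47 of the 50 members were measured, out of 19167 gene symbols on the array. The other 3 were Hsp90b1, Srp54 and Spcs3. Hsp90b1 and Srp54 were found under older names through their accessions and are given separately, outside all counts, and Spcs3 was not analysed here. All tissue came from 11 male F344 rats, about 33 weeks old, that had drunk water with the carcinogen 4-nitroquinoline-1-oxide (4-NQO) at 20 ppm over 10 weeks. From every rat an OSCC and the phenotypically normal tongue beside it were collected, and each piece was hybridized to its own single-colour Agilent array, 22 arrays in all. The sample titles call every rat untreated and the treatment label of the normal pieces reads none, whereas the deposited protocol describes 4-NQO exposure of the rats that gave both tissues, so the normal pieces are treated here as exposed tissue without a tumour. No unexposed rat is part of the comparison.

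Proteins destined for secretion or for the cell surface are recognised by the signal recognition particle as they emerge from the ribosome, and they enter the ER through the Sec61 channel. In the ER they lose their signal peptide, receive N-linked sugars, are folded by chaperones and are joined by disulfide bonds before they leave in COPII-coated vesicles, while misfolded chains are returned to the cytosol for degradation. When unfolded protein accumulates, the sensors IRE1 (gene Ern1), PERK (gene Eif2ak3) and ATF6 start the unfolded protein response, which raises transcription of this machinery through XBP1 and ATF6 and slows translation while raising ATF4. Salivary gland acinar cells and plasma cells secrete large amounts of protein and carry much of this machinery, and fibroblasts use it for collagen.

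OSCC carried more RNA of most of this machinery than the adjacent normal tongue of the same rat. Of the 47 members, 14 rose by at least 2-fold at an adjusted p below 0.05 (limma with rat as a block, Benjamini-Hochberg adjustment over all 30367 probes), and none fell by 2-fold, at an unadjusted p below 0.05 either. Over all probes of the array 6.86% rose and 6.97% fell by the same rule. At an adjusted p below 0.05 and any size of change, 35 members rose and 1 fell, against 16.2% and 27.9% of all probes. The median difference of the members, OSCC minus normal, was 0.76 on the log2 scale, with a range from -0.34 to 2.03, whereas the median over all probes was -0.24. Because dim probes weigh on that background, the 13632 probes that were well above background on all arrays were taken as well. Of these, 5.44% rose by at least 2-fold and 19.4% rose at any size, and their median difference was -0.076. All but 2 of the members, 45 of 47, were well above background on all 22 arrays, and none was saturated on any array. In bulk tissue, fewer cells of a type and less RNA per cell cannot be told apart, and the same holds for more of either.

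**Figure D1:**
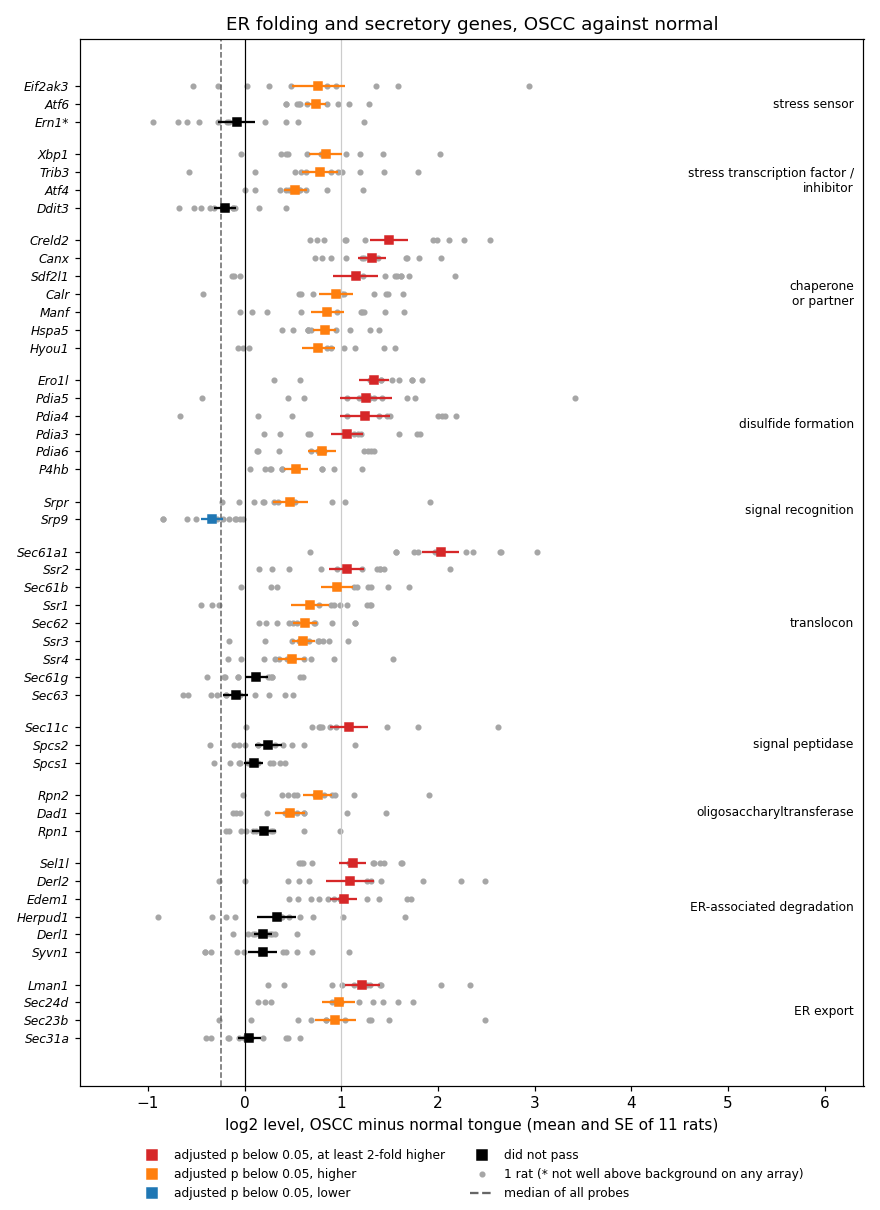
Log2 difference in level between OSCC and normal tongue for the 47 members, grouped by role, with the mean and standard error over 11 rats (squares) and each rat's own difference (grey dots). The chaperone and disulfide genes all lie right of 0, and Sec61a1 of the translocon has the largest mean at 2.03. The dashed line marks the median of all probes, -0.24.

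Levels are given below as the log2 processed signal relative to the 75th percentile of the same array, so that 0 stands for that percentile, and for each tissue as the lowest, the median and the highest of 11 arrays. A level of 1 probe says nothing of the level of another gene, since probes differ in brightness. The OSCC pieces were far less uniform than the normal pieces. The standard deviation was larger in OSCC for 44 of the 47 members, with a median of 0.46 in OSCC and 0.17 in normal tongue, and it was larger in OSCC for 83.2% of all probes. The levels in the 2 tissues overlapped for all 47 members. Non-overlap was uncommon on the array as a whole, with OSCC above every normal array for 0.668% of probes and below for 0.978%. Within rats, 17 members were higher in OSCC in all 11 pairs and 29 in at least 10. The share of all probes that did so is not given, and 36.2% of all probes had a positive mean difference.

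Some of the promoters carry known motifs of the unfolded protein response. Genes of that response were put on the list for their known roles. A higher share than over all promoters was therefore likely beforehand and is no separate support. ATF6 and XBP1 are known to act on the ER stress response element (ERSE, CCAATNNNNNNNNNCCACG), where N is any base. RefSeq promoters of assembly GRCr8, from 250 bases before to 50 bases after the transcription start, were given for 38 of the 47 measured members and searched on both strands. An ERSE was present in 5 of the 38, a share of 13.2%, against 22 of all 33469 promoters in the table, the members' own included, a share of 0.0657%. The related ERSE-II (ATTGGNCCACG) was present in 2 members, Hyou1 and Herpud1, or 5.26%, against 0.0508% of all promoters. The UPRE core (TGACGTG) was present in 4 members, or 10.5%, against 1.81%, and the amino acid response element that ATF4 is known to bind (TGATGNAA) in 2, Trib3 and Herpud1, or 5.26%, against 3.98%. The short end piece CCACG, which both ERSE forms contain, was present in 71.1% of member promoters and 31.6% of all. These matches describe the letters of the promoters, and no binding was measured. The windows that hold an ERSE are shown because these 5 genes all rose in OSCC, beside those of Hsp90b1, which is outside the counts, with the fixed letters in capitals and 5 bases on either side, each read 5′ to 3′ on the strand that carries the motif.
Hspa5, chr3:38452968-38452996, plus strand, from 43 bases before the start: gttcaCCAATcggaggcctCCACGacggg
Xbp1, chr14:84604553-84604581, plus strand, from 65 bases before the start: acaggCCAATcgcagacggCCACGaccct
Canx, chr10:35158064-35158092, minus strand, from 230 bases before the start: cttgtCCAATcatcacgctCCACGaagaa
Creld2, chr7:121789234-121789262, minus strand, from 145 bases before the start: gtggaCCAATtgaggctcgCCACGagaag
Calr, chr19:40213130-40213158, minus strand, from 232 bases before the start: ctgggCCAATcagggtcgaCCACGcgttg
Hsp90b1, chr7:23012446-23012474, minus strand, from 176 bases before the start: caaacCCAATcgaaaggagCCACGcttcg
Hsp90b1, chr7:23012342-23012370, plus strand, from 72 bases before the start: acccaCCAATcgtgcctcaCCACGcactc

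The motif lies on the gene's own strand in Hspa5, Xbp1, Canx and the first Hsp90b1 window, and on the opposite strand in the others. The ERSE-II windows of the other 2 genes are shown in the same way, since Hyou1 carries the motif at separate places and Herpud1, by contrast with the 5 measured genes above, did not pass the test.
Hyou1, chr8:53602789-53602809, minus strand, from 88 bases before the start: tccccATTGGgCCACGtagaa
Hyou1, chr8:53602689-53602709, minus strand, from 188 bases before the start: tgcggATTGGcCCACGtcacg
Herpud1, chr19:10614816-10614836, minus strand, from 124 bases before the start: cgctgATTGGgCCACGttggg

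Of the members called at 2-fold, 11 had a promoter in the table, and an ERSE was found in 2 of them, Creld2 and Canx. Sec61a1, the member with the largest rise, had no promoter in the table.

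All 7 chaperones and chaperone partners rose, 3 of them by at least 2-fold. Creld2, a stress-induced folding factor of the ER, was at -0.82, -0.37 and 0.47 (lowest, median and highest) in normal tongue and at -0.10, 1.25 and 2.04 in OSCC. Its log2 difference was 1.49 ± 0.20 (SE, n = 11 pairs, adjusted p = 0.000369 by limma), and it was higher in OSCC in all 11 rats. Calnexin (Canx), the membrane-bound lectin chaperone that holds glycoproteins until they fold, went from -1.45, -0.99 and -0.11 in normal tongue to -0.22, 0.64 and 0.92 in OSCC. This was a log2 difference of 1.32 ± 0.14 (SE, n = 11 pairs, adjusted p = 0.000143 by limma), again with all 11 rats in the same direction, and the 3 lowest OSCC arrays lay below the highest normal array. Sdf2l1, a partner of the chaperone BiP, was at 0.31, 0.56 and 1.38 in normal tongue and at 0.34, 2.01 and 2.59 in OSCC. Its difference of 1.15 ± 0.24 (SE, n = 11 pairs, adjusted p = 0.00306 by limma) came from 8 of the 11 rats, and animals 21, 22 and 24 showed no rise.

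BiP itself (Hspa5), the main ER Hsp70 and the usual gauge of the unfolded protein response, lay at 3.63, 3.83 and 4.06 in normal tongue and at 4.01, 4.68 and 5.20 in OSCC. It rose in all 11 rats by 0.83 ± 0.12 on the log2 scale (SE, n = 11 pairs, adjusted p = 0.000448 by limma), which is 1.78-fold and so below the 2-fold limit. Only its lowest OSCC array, that of animal 22, lay within the range of the normal arrays. Calreticulin (Calr), the soluble relative of calnexin, rose by 0.94 ± 0.18 (SE, n = 11 pairs, adjusted p = 0.00178 by limma) in 10 rats. Manf, a secreted ER stress protein, and Hyou1, the large Hsp70 relative that exchanges nucleotide on BiP, rose by 0.86 and 0.76. Grp94 (Hsp90b1), found by accession, was at 2.81, 2.94 and 3.19 in normal tongue and at 2.99, 3.90 and 4.58 in OSCC, with a difference of 0.94 ± 0.16 (SE, n = 11 pairs, adjusted p = 0.0011 by limma) and a rise in all 11 rats.

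All 6 genes of disulfide formation rose, 4 by at least 2-fold. Ero1l (now Ero1a), the oxidase that feeds disulfide bonds to the protein disulfide isomerases, was at -1.38, -1.23 and -0.90 in normal tongue and at -0.95, 0.31 and 0.60 in OSCC. It rose by 1.34 ± 0.15 (SE, n = 11 pairs, adjusted p = 0.000178 by limma) in all 11 rats. Among the isomerases, Pdia4 was at -0.16, -0.06 and 0.37 in normal tongue and at -0.30, 1.49 and 2.09 in OSCC, a difference of 1.25 ± 0.26 (SE, n = 11 pairs, adjusted p = 0.00314 by limma) to which animal 21 ran opposite. Pdia5 had a difference of 1.25 ± 0.27 (SE, n = 11 pairs, adjusted p = 0.00371 by limma), with levels of -2.08, -1.64 and -1.20 in normal tongue and -1.72, -0.40 and 1.78 in OSCC. Its pairs were the most spread of this role, from -0.44 in animal 22 to 3.42 in animal 17. Pdia3, the isomerase that works with calnexin and calreticulin, was at 2.34, 2.60 and 2.89 in normal tongue and at 2.85, 3.74 and 4.43 in OSCC, and rose by 1.06 ± 0.17 (SE, n = 11 pairs, adjusted p = 0.000734 by limma) in all 11 rats. Pdia6 and P4hb, the classical isomerase, rose by less, 0.80 and 0.53.

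**Figure D2:**
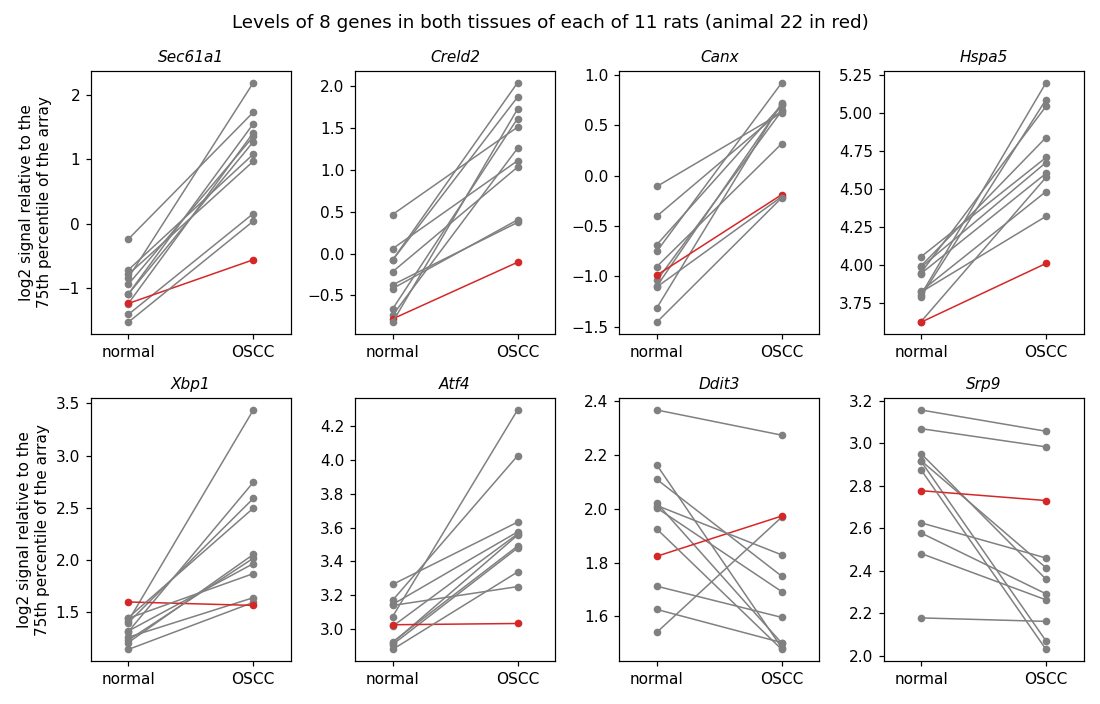
Level of 8 genes in normal tongue and OSCC (log2 signal relative to the 75th percentile of the array, each panel with its own axis), with a line for each of 11 rats. Sec61a1, Creld2, Canx, Hspa5 and Atf4 are higher in OSCC in every rat and Srp9 is lower in every rat, while Ddit3 is higher in only 2. Animal 22, in red, has the smallest rise in Sec61a1, Creld2, Hspa5 and Atf4, and no rise in Xbp1.

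The translocon, the channel through which new chains enter the ER, held the largest change of the whole list. Sec61a1, the pore-forming subunit, whose probe lies at chr4:122601518-122601577 of assembly rn4, was at -1.53, -1.09 and -0.24 in normal tongue and at -0.56, 1.27 and 2.18 in OSCC. The difference was 2.03 ± 0.19 (SE, n = 11 pairs, adjusted p = 8.04e-05 by limma), which is 4.08-fold, and it ranged from 0.68 in animal 22 to 3.03 in animal 17. The other subunits of the same channel did not move by the same amount. Sec61b rose by 0.96, just under 2-fold, and Sec61g was 0.12 higher with an adjusted p of 0.409 by limma, and each of its 2 probes showed 0.12. Of the signal sequence receptor subunits that sit beside the channel, Ssr2 was at 1.67, 1.85 and 2.21 in normal tongue and at 1.99, 3.04 and 4.11 in OSCC, a rise of 1.05 ± 0.18 (SE, n = 11 pairs, adjusted p = 0.00104 by limma) in all 11 rats, and Ssr1, Ssr3 and Ssr4 rose by 0.68, 0.61 and 0.49. Sec62, of the post-translational route, rose by 0.62 in all 11 rats. Its partner Sec63, which recruits BiP to the channel, was 0.091 lower and did not pass the test (adjusted p = 0.569 by limma).

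The signal recognition genes went both ways. Srp9, a subunit of the particle's Alu domain, which slows elongation, was the single member that fell. It was at 2.18, 2.88 and 3.16 in normal tongue and at 2.03, 2.36 and 3.06 in OSCC, and lower in OSCC in all 11 rats by a small amount, -0.34 ± 0.11 (SE, n = 11 pairs, adjusted p = 0.0335 by limma). A second Srp9 probe had -0.35. The call was close to the threshold and held under 14 of 26 alternatives, with adjusted p = 0.0607 by limma under quantile normalization, 0.101 with normexp and 0.0939 with slide as a random block. Srpr (now Srpra), a subunit of the particle's receptor on the ER, rose by 0.47 ± 0.18 (SE, n = 11 pairs, adjusted p = 0.0496 by limma), with the highest OSCC array, that of animal 17, at 4.45 against a normal range of 2.43 to 2.77. This call held under only 9 of 26 alternatives, and was lost with array median scaling (0.27, adjusted p = 0.252 by limma) and without animal 17 (0.33, adjusted p = 0.0679 by limma). Srp54, the subunit that binds the signal sequence, found by accession, was at 0.89, 1.09 and 1.3 in normal tongue and at 1.17, 1.58 and 2.24 in OSCC, 0.54 ± 0.12 higher (SE, n = 11 pairs, adjusted p = 0.00439 by limma).

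Of the 3 signal peptidase genes 1 rose, and of the 3 genes of the oligosaccharyltransferase 2 rose. Sec11c, a catalytic subunit of the signal peptidase, was at 2.38, 2.48 and 2.88 in normal tongue and at 2.47, 3.33 and 5.27 in OSCC, 1.08 ± 0.20 higher (SE, n = 11 pairs, adjusted p = 0.00169 by limma) and higher in all 11 rats, though by only 0.02 in animal 22. The accessory subunits Spcs1 and Spcs2 were 0.094 and 0.25 higher and did not pass the test. Of the oligosaccharyltransferase, which attaches N-linked sugars, Rpn2 and Dad1 rose by 0.75 and 0.47, the latter under 15 of 26 alternatives, and Rpn1 was 0.20 higher without passing the test (adjusted p = 0.187 by limma).

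In ER-associated degradation, 3 of 6 members rose, all by at least 2-fold, and the other 3 did not pass the test. Sel1l, the scaffold of the ubiquitin ligase complex, was at -2.51, -2.05 and -1.44 in normal tongue and at -1.53, -0.88 and -0.57 in OSCC, a rise of 1.12 ± 0.14 (SE, n = 11 pairs, adjusted p = 0.000265 by limma) in all 11 rats. Edem1, which takes misfolded glycoproteins out of the folding cycle, was at -2.11, -1.59 and -0.95 in normal tongue and at -1.28, -0.33 and -0.056 in OSCC, 1.03 ± 0.14 higher (SE, n = 11 pairs, adjusted p = 0.000401 by limma) in all 11 rats. Derl2, a membrane component of the exit channel, was at -5.23, -3.96 and -2.70 in normal tongue and at -3.90, -2.93 and -2.35 in OSCC, 1.09 ± 0.25 higher (SE, n = 11 pairs, adjusted p = 0.0056 by limma). Its signal was dim, exceeding background clearly on 3 arrays of normal tongue and 10 of OSCC, and with the normexp background correction the difference was 0.36 with an adjusted p of 0.626 by limma, so that the call was lost. Syvn1, the ligase that Sel1l holds, and Derl1 were each 0.19 higher, and Herpud1, a stress-induced member of the same complex, was 0.33 higher, with pairs from -0.90 to 1.66. Herpud1 was thus higher in 7 rats and lower in 4, and had an adjusted p of 0.187 by limma.

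Of the 4 export genes, 3 rose. Lman1, the cargo receptor that carries glycoproteins from the ER, was at -1.61, -1.29 and -1.09 in normal tongue and at -1.11, -0.08 and 0.96 in OSCC, a difference of 1.22 ± 0.18 (SE, n = 11 pairs, adjusted p = 0.000589 by limma) in all 11 rats. The inner COPII coat genes Sec24d and Sec23b rose by 0.98 and 0.94, while Sec31a of the outer coat was 0.051 higher and did not pass the test (adjusted p = 0.732 by limma).

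Of the 3 sensors of the unfolded protein response 2 rose, and of the 4 transcription factors and inhibitors 3 rose, none by 2-fold on its brightest probe. Xbp1 was at 1.14, 1.31 and 1.59 in normal tongue and at 1.56, 2.01 and 3.44 in OSCC, a rise of 0.84 ± 0.17 (SE, n = 11 pairs, adjusted p = 0.00305 by limma) in 10 rats. The array does not separate the spliced and unspliced forms of Xbp1 RNA, so the activity of IRE1 on it was not measured. Atf6 was at -1.24, -0.83 and -0.46 in normal tongue and at -0.51, -0.036 and 0.26 in OSCC, 0.73 ± 0.11 higher (SE, n = 11 pairs, adjusted p = 0.000556 by limma) in all 11 rats. Eif2ak3, which encodes PERK, was at -1.58, -1.3 and -1.01 in normal tongue and spread from -1.77 to 1.6 in OSCC, with a median of -0.56. Its difference of 0.76 ± 0.27 (SE, n = 11 pairs, adjusted p = 0.0394 by limma) passed the test under only 12 of 26 alternative settings. Ern1, which encodes IRE1, was not well above background on any of the 22 arrays, so no fold is given.

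On the PERK branch, Atf4 was at 2.88, 3.03 and 3.26 in normal tongue and at 3.03, 3.56 and 4.30 in OSCC. It rose by 0.52 ± 0.12 (SE, n = 11 pairs, adjusted p = 0.00498 by limma) in all 11 rats, though by only 0.01 in animal 22. Trib3, an inhibitor that ATF4 is known to induce, rose by 0.78 in 10 rats, with animal 24 the exception at -0.57. Ddit3, which encodes the proapoptotic factor CHOP, was at 1.54, 2.0 and 2.37 in normal tongue and at 1.48, 1.69 and 2.27 in OSCC. The difference was -0.21 ± 0.11 (SE, n = 11 pairs, adjusted p = 0.154 by limma), with 9 rats lower and animals 4 and 22 higher in OSCC. On average over the rats Ddit3 thus did not rise, while the chaperones did.

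More than 1 probe was present for 9 members, and they did not always give the same size of change. The dimmer probe had the higher signed difference for 8 of the 9, by only 0.0015 for Sec61g and 0.017 for Spcs2. For Srp9, which fell, the dimmer probe had -0.35 against -0.34. For Sel1l the dimmer probe had 1.73 against 1.12, for Sdf2l1 1.5 against 1.15 and for Srpr 1.06 against 0.47. For each of these genes the dimmer probe had the larger difference in all 11 rats. The dimmer Sel1l probe exceeded background clearly on only 4 normal arrays, so its 1.73 was taken mostly against background-level signal. For Atf6 the dimmer probe had 1.25 against 0.73, and for Ssr1 1.13 against 0.68. Atf6, Srpr and Ssr1 would thus each pass the 2-fold limit on their dimmer probe. No gene changed direction between its probes. Across the 47 members the level in normal tongue and the difference had a Pearson r of -0.34, a description over genes that share arrays and differ in probe brightness.

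The rats differed in how far the machinery rose. The median difference over the 47 members was lowest in animal 22, at -0.015 with 23 members higher in OSCC, followed by animal 21 at 0.27 and animal 24 at 0.49. It was highest in animal 17, at 1.39 with 44 members higher. In the other 7 rats it lay between 0.51 and 0.97, with 39 to 43 members higher. Animals 21, 22 and 24 were also 3 of the 4 rats whose median over all probes was above 0, the fourth being animal 17. Without animals 21, 22 and 24, 21 members rose by at least 2-fold and the median difference was 0.95. Of all 30367 probes 2639 rose by the same rule, and their median was -0.36.

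**Figure D3:**
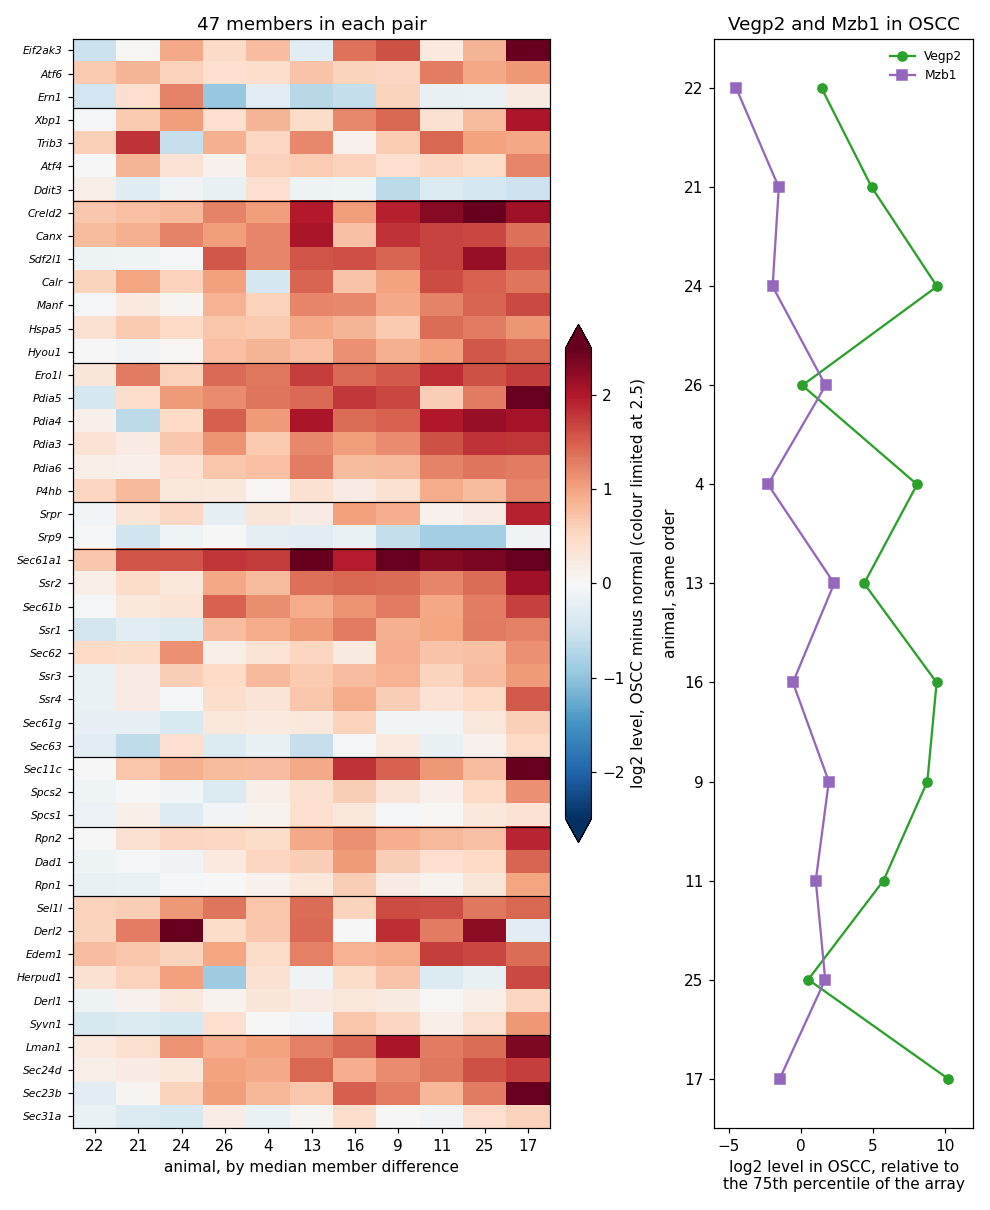
Left, log2 difference between OSCC and normal for each member (rows, by role) in each rat (columns, ordered by the rat's median over the members, from animal 22 at -0.015 to animal 17 at 1.39). Right, the log2 levels of Vegp2 and Mzb1 in the OSCC arrays of the same rats, which do not run in the same order as the members.

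Markers of secretory cells rose in the same OSCC pieces. Of 12 salivary gland markers on the array 10 rose by at least 2-fold, with a median log2 difference of 7.04, and their summed level (log2 of the sum of scaled signals) ranged from -1.48 to 1.61 in normal tongue and from 1.68 to 12.6 in OSCC. Of these 12, 6 never stood well above background in normal tongue. Of 9 plasma and B cell markers 5 rose by at least 2-fold, with a median of 2.45 and summed levels from -2.20 to -1.52 in normal tongue and from -1.56 to 3.35 in OSCC, and 7 of the 9 never stood well above background in normal tongue. Of 8 fibroblast markers, 6 rose, with a median of 1.27 and summed levels from 5.75 to 6.57 in normal tongue and from 5.64 to 8.80 in OSCC. Of 7 macrophage markers 5 rose and of 7 neutrophil markers 4 rose. Of 8 skeletal muscle markers 5 fell and 1 rose, with a median of -1.85, whereas of 6 stratified epithelial markers only 1 rose, 3 of 5 endothelial markers fell at an adjusted p below 0.05 but none by 2-fold (median -0.41), and none of 5 proliferation markers passed the test (limma, unadjusted p below 0.05 for 0). Without animals 21, 22 and 24 all 5 proliferation markers rose at an adjusted p below 0.05 by limma, 2 of them by at least 2-fold, with a median of 0.79. Which of these cells carried the members' RNA was not tested.

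Whether the change of the members followed the gland or the plasma cells was asked over the pairs. Vegp2, a von Ebner's gland lipocalin that serves as the gland gene, was at -6.03, -4.10 and -0.17 in normal tongue and at 0.10, 5.75 and 10.2 in OSCC. It exceeded background clearly on 4 normal arrays and on all 11 OSCC arrays. Its pair differences were 2.84 in animal 25, 3.09 in animal 26, 5.37 in animal 22, 5.68 in animal 21, 5.92 in animal 11, 10.4 in animal 13, 12.5 in animal 4, 13.5 in animal 16, 13.8 in animal 9, 14.9 in animal 24 and 15.4 in animal 17. The normal arrays above background were those of animals 11, 21, 22 and 25, so the other 7 differences, among them the 6 largest, were taken against background-level signal, and their size and order carry its noise. The 5 smaller and the 6 larger differences were separated by 35.8% of the range, and correlations of differences used the 6 larger. In the OSCC arrays alone, where Vegp2 was always measured, its level was 0.10 in animal 26, 0.52 in 25, 1.46 in 22, 4.40 in 13, 4.93 in 21, 5.75 in 11, 8.08 in 4, 8.79 in 9, 9.44 in 16, 9.47 in 24 and 10.2 in 17. There the widest gap was 29.1% of the range, just under the 30% at which rats were set apart, and animal 13 lay below animals 11 and 21. Mzb1, an ER protein of B lineage and plasma cells that helps to assemble immunoglobulin, never stood well above background in normal tongue and did so on 10 OSCC arrays. It was at least 11.9-fold higher in OSCC, against the lowest signal that counted as above background on each normal array. Its pair differences ran from 2.01 in animal 22 to 8.28 in animal 13, and animal 22 stood apart by 31.0% of the range, so that 10 rats were used. With no normal array above background, every Mzb1 difference has the same limit, and levels in OSCC are given beside them.

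By limma and by permutation, no member followed either gene after adjustment over all probes, in differences or in OSCC levels. Over the 6 rats with the larger Vegp2 differences, the r of the members ranged from -0.48 to 0.98 with a median of 0.17, and it was positive for 29 of 47. By the exact permutation test, for which no share of all probes is given, 4 members passed an unadjusted p of 0.05. By limma 3 did, where 8.11% of all probes rose and 3.81% fell. After adjustment 0% of all probes did either. With 6 pairs there are 720 orders, so the permutation test could not have passed an adjustment over 30367 probes for a few genes alone. The 5 members with the largest r were Sec63 (0.98), Herpud1 (0.93), Xbp1 (0.85), Eif2ak3 (0.85) and Srpr (0.73), but the 6 differences of Vegp2 were all against background-level signal. Leaving out the 2 rats farthest from the median left 4, too few for a value.

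Over the 11 OSCC arrays, the r of the members with the level of Vegp2 ranged from -0.14 to 0.77 with a median of 0.37. It was positive for 44 of 47. The share of all probes with a positive r is not given, here or for the other relations. The members share the same arrays, so their signs are not separate results. By permutation, for which no share of all probes is given, 13 members passed an unadjusted p of 0.05. By limma 9 did, all rising, where 3.21% of all probes rose and 1.24% fell. After adjustment 0.375% of all probes rose by limma and 0% fell. Srpr had the largest Pearson r, 0.77 (permutation p = 0.00334, adjusted p = 0.427), with a Spearman rho of 0.83 (permutation p = 0.00273, adjusted p = 0.297). Its r was 0.79 without the 2 rats farthest from the median of Vegp2. These were animals 25 and 26, with the lowest Vegp2 levels. Eif2ak3, the kinase PERK, had an r of 0.73 (permutation p = 0.00728, adjusted p = 0.539) and a rho of 0.83 (permutation p = 0.00276, adjusted p = 0.297), with 0.88 without those rats. Xbp1 had an r of 0.73 (permutation p = 0.0102, adjusted p = 0.594) and a rho of 0.77 (permutation p = 0.00761, adjusted p = 0.417), with 0.85 without them. For Sec63 and Herpud1, the highest in the differences, the r was 0.49 (permutation p = 0.124) and 0.58 (permutation p = 0.0629). The chaperone Hspa5 had an r of 0.14 (permutation p = 0.682), and of 0.51 without animals 25 and 26.

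Over the 10 rats with Mzb1, the r of the members in differences ranged from -0.58 to 0.67 with a median of 0.21, and it was positive for 32 of 47. By limma and by permutation alike, 4 members passed an unadjusted p of 0.05. At that threshold 5.90% of all probes rose and 10.2% fell with Mzb1 by limma, and 0.00329% rose and 0% fell after adjustment, the former being 1 probe. The largest r belonged to Canx (0.67), Creld2 (0.66), Sel1l (0.65), Calr (0.63) and Sdf2l1 (0.63). In OSCC levels over the same 10 rats, r was positive for 26 of 47, with a median of 0.073 and a range from -0.63 to 0.71. By limma 1 member, Canx, passed unadjusted, where 8.03% of all probes rose and 7.74% fell, and 0.0461% rose and 0% fell after adjustment. By permutation 4 members rose and 1 fell unadjusted, with no share of all probes by that test beside them. Canx had an r of 0.71 (permutation p = 0.0143, adjusted p = 0.267), a rho of 0.81 (permutation p = 0.007, adjusted p = 0.535) and an r of 0.61 without the 2 rats farthest from the median of Mzb1. Sel1l had an r of 0.68 (permutation p = 0.025, adjusted p = 0.273), a rho of 0.82 (permutation p = 0.00593, adjusted p = 0.535) and an r of 0.61 without them. For Sdf2l1, Calr and Creld2 the r was 0.62, 0.59 and 0.43, and for Calr it was 0.072 without them. The points of each relation share their arrays and their scaling, and these members were picked for their r among 47.

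**Figure D4:**
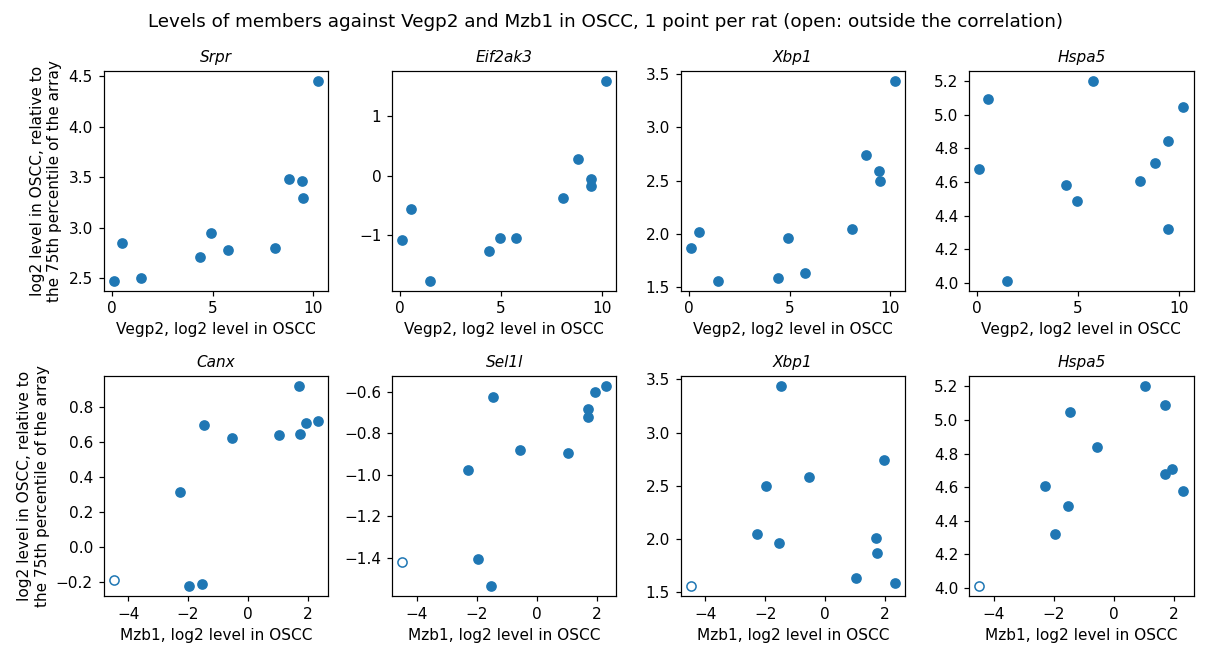
Log2 level of named members in OSCC (vertical axes, relative to the 75th percentile of the array, each panel with its own scale) against that of Vegp2 (top) and Mzb1 (bottom), with 1 point for each of 11 rats. The open point is animal 22, whose Mzb1 signal was not above background and did not enter the correlation. Srpr, Eif2ak3 and Xbp1 are highest in animal 17, which has the highest Vegp2 level, while Hspa5 has high values at both ends of Vegp2.

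With the differences of both genes in one model over all 11 rats, no member had a slope on Vegp2 or on Mzb1 that passed the adjusted threshold by limma. The difference of the slopes passed for 1 of the 47, Herpud1, whose slope on Mzb1 was 0.76 lower than that on Vegp2 per standard deviation (adjusted p = 0.0493 by limma). No share of all probes is given beside this count. The model kept the rats that the gap rule left out of the correlations of differences. These slopes carry the same limit of the background-level normal arrays. A member such as Hspa5 rose by at least 0.39 in every rat. In animals 26 and 25, with the lowest Vegp2 levels in OSCC, 39 and 43 of the 47 members were higher, with medians of 0.51 and 0.97. In animal 22, with the lowest Mzb1 signal in OSCC and a Vegp2 level of only 1.46, 23 of 47 were higher, with a median of -0.015. In animal 4, with the next-lowest Mzb1 level of -2.28, 41 of 47 were higher, with a median of 0.58. Which cells carried these differences was not tested.

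A list of further genes of the same machinery was drawn up by function, with earlier results of these data known. Among the 81 measured, 19 rose and 1 fell by at least 2-fold, against 6.86% and 6.97% of all probes. At any size 52 rose and 3 fell, against 16.2% and 27.9% of all probes. The median difference of the 81 genes was 0.51. The largest rises were those of Derl3, a degradation factor that is also one of the plasma cell markers, Creb3l1, a membrane-bound transcription factor of secretory cells, Asns, asparagine synthetase and a known ATF4 target, Fkbp11, a prolyl isomerase of secretory cells, and Kdelr3, a receptor that returns ER residents from the Golgi. Their log2 differences were 3.36 ± 0.39 for Derl3, 2.47 ± 0.39 for Creb3l1, 2.30 ± 0.34 for Asns, 2.17 ± 0.33 for Fkbp11 and 2.15 ± 0.26 for Kdelr3 (SE over 11 pairs), and each exceeds that of every member. The spread over OSCC was wide, as for Creb3l1, which was at -1.04, -0.68 and -0.09 in normal tongue and at -1.13, 2.0 and 4.75 in OSCC. The single 2-fold fall was that of Wfs1, an ER membrane protein of calcium balance, at -0.12, 0.01 and 0.91 in normal tongue and at -2.70, -1.85 and 0.05 in OSCC. It was lower in all 11 rats by -1.64 ± 0.26 (SE, n = 11 pairs, adjusted p = 0.000713 by limma).

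Scan day was tied to tissue. All 11 normal arrays and the OSCC arrays of animals 4 and 9 shared a scan day, the remaining 9 OSCC arrays were scanned on a different day, and no slide held both tissues, so slide and tissue cannot be told apart. Within the single day, in animals 4 and 9, 38 of all 47 members were higher in OSCC in both rats, with a median of 0.69. All 14 members called at 2-fold were higher in both, with a median of 1.31, but these 2 rats took part in that call. No share of all probes higher in both rats is given beside these counts. A fit with scan day as a further term rests on these 2 rats, and by limma it left no member called after adjustment. At an unadjusted p below 0.05, 17 members were higher and 0 lower by it, where 2442 of all 30367 probes were higher and 8489 lower. By that fit no probe of the array was called higher. With only the 9 pairs scanned on different days, 15 members rose by at least 2-fold, as did 1740 of all 30367 probes. The choice of scaling also mattered for the count at 2-fold. Scaled to the array median it was 7 and with the normexp correction 6, among them Sec61a1, Creld2, Ero1l and Pdia4 in both. Of all probes 1541 and 684 rose by at least 2-fold under these settings, against 2083 with the 75th percentile. At any size 28 members rose under either, as did 3364 and 1624 of all probes. Array median scaling moved the median of all probes from -0.24 to -0.44. The 75th percentile of the processed signal lay between 237 and 655 on normal arrays and between 339 and 1414 on OSCC arrays.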

How the data were processed

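Total RNA of 11 pairs of OSCC and adjacent normal tongue was measured on Agilent Rat GE 4x44K v3 arrays. The intensity values were background-subtracted and spatially detrended by the authors with Agilent Feature Extraction before they were deposited. The authors also deposited the ratio of that signal to the 75th percentile of its array, used here as an alternative. Here control spots and 9196 outlier spots (0.975%) were left out, log2 signals were averaged over the spots of a probe, and the 75th percentile was subtracted. No dim probe was removed. The brightest probe stood for a gene. The comparison of tissues used limma (version 3.58.1, under R 4.3.3) and kept rat as a block, because both tissues came from the same animal. The deviations of a rat's tissues from their group means had correlations from -0.21 to 0.24 over probes. Pairs are separate rats. Correlations over pairs used all orders below 10 pairs and 100000 permutations otherwise, two-sided, with Benjamini-Hochberg adjustment over all probes. Where the widest gap exceeded 30% of the range, only the larger cluster of at least 6 pairs was used. Both fits were tested on simulated data of 11 pairs. That setting does not cover slopes over 6 or 10 pairs or background-level signal. The members, the lists and the rule for named genes (2-fold calls, chosen stress genes, the 5 largest r for each of Vegp2 and Mzb1, and the 5 largest changes each way of the further genes) were chosen with earlier results of these data known. The number of arrays limits the precision. Alternatives covered scaling, background correction, dim probes, the methods' t-test, pairing, scan day, slide, probe choice and each rat. Protein sequences were not used here.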

Additional observations from a re-analysis of the deposited data

How the results depend on the processing

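Under 26 alternatives run on the members, 1102 of 1221 single-gene results kept their direction and their side of the threshold, 98 lost the call, 8 gained it and 13 changed sign. Counts of members higher at 2-fold moved from 14 to 7 when scaled to the array median, to 6 with normexp and to 0 with scan day as a further term, which also took the 35 at any size to 0. Over all probes the 2-fold count went from 2083 to 1541, 684 and 0 under the same settings. The cause was not tested. The 1 member lower at any size became 2 when scaled to the array median and 0 under quantile normalization, the percentile over detected probes, normexp, scan day, different-day pairs, slide as a random block and no replicate block. Leaving out the pairing (no replicate block) gave 14 at 2-fold and 36 at any size. Of the further secretory genes, 19 higher at 2-fold became 12, 11 and 0 with array median, normexp and scan day, and 52 at any size became 28, 25 and 0. Their 1 lower at 2-fold became 0 with scan day and 2 without animals 21, 22 and 24, and their 3 lower at any size became 5, 1 and 0 with array median, normexp and scan day, 5 without animals 21, 22 and 24 and 5 by the methods' t-test unadjusted. Leaving out each rat gave 10 to 17 members higher at 2-fold, 32 to 35 at any size and 0 to 1 lower, and 16 to 22, 39 to 53, 1 and 2 to 4 for the further genes. The members following Vegp2 or Mzb1 numbered 0 wherever a value could be had without a rat. Members following Mzb1 numbered 1 under quantile normalization (Sdf2l1) and 1 over different-day pairs (Herpud1, falling). Sign changes at near-zero values were Ern1 at 0.24 (quantile), 0.0057 (percentile over detected probes) and 0.14 (scan day), Sec63 at 0.031 and Sec31a at -0.087 (scan day), and, scaled to the array median, Sec61g at -0.082, Spcs1 at -0.11, Rpn1 at -0.00084, Syvn1 at -0.014, Derl1 at -0.0100 and Sec31a at -0.15. Leaving out each rat, Ern1 ranged from -0.21 to 0.0045 (without animal 26) and Sec31a from -0.0013 (without animal 17) to 0.096. For Vegp2 no value could be had without animals 4, 9, 13, 16, 17 or 24, without the 2 farthest pairs, without animals 21, 22 and 24 or over different-day pairs, and for Mzb1 without animal 16, since fewer than 6 pairs remained. Low signal limits Ern1, Derl2, Vegp2 and Mzb1.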
